A study of Drosophila melanogaster with 8 samples.

Results

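Heat shock proteins and their constitutive relatives were examined in Dh44 neurons of the adult fly brain, as the genes whose FlyBase symbol begins with Hsp, Hsc70 or CCT, without Hsc70-3, the relative of the endoplasmic reticulum. The rule names 31 genes, of which 21 had a value among the 11773 gene identifiers. The other 10 were not analysed here. They are Hsp60A, Hsp70Bb and all 8 CCT genes, so no value is given for the cytosolic chaperonin, the ring complex that folds tubulin and actin. By textbook knowledge 12 of the measured members are induced by heat, 6 are expressed without it, and 3, the Hsp60 paralogs Hsp60B, Hsp60C and Hsp60D, were put in neither class.

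The series asked how the fly Drosophila melanogaster senses amino acids from its food inside the body. It held 8 libraries of one group, numbered as in their titles: brain cells of flies with the genotype DH44-GAL4;UAS-mCD8gfp, in which a Dh44 driver labels cells with membrane-bound green fluorescent protein, aged 5 days on normal food. The labels name no heat treatment, no other cell type and no animal behind any library, and they speak both of individual and of pooled cells. No contrast between samples was therefore possible, no p-value was computed, and every spread is that between libraries, which may be technical.

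Heat shock proteins are chaperones that bind unfolded proteins and keep them from aggregating. In the classic heat shock response the transcription factor Hsf switches on the Hsp70 genes, Hsp68 and the small heat shock protein genes, while the cognate Hsc70 proteins and Hsp83, the fly Hsp90, serve folding in unstressed cells. Hsp83 also rises with heat but is abundant without it, and was placed with the constitutive members. Small heat shock proteins hold clients without using ATP and pass them on to the Hsp70 system, and in flies they are also expressed in neurons and during development without heat.

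Levels are FPKM, in which the authors scaled fragments by exon length and library size. Levels of different genes are compared on this scale. The DNA was amplified before sequencing, and a bias with transcript length was not tested. Dh44 itself ranked between 1 and 5 in the 8 libraries. Of all genes in the files 41.2% reached 1 FPKM in at least 4 libraries, and all 11 neuronal markers measured did. So did 4 of 8 glial, 5 of 7 fat body, 11 of 12 photoreceptor, 4 of 5 hemocyte and 4 of 8 muscle markers. Their summed FPKM spanned 519 to 2141 for neurons, 244 to 447 for glia, 14333 to 68479 for fat body, 795 to 7921 for photoreceptors, 20.6 to 283 for hemocytes and 28.9 to 322 for muscle. The marker with the highest median of each list was fne for neurons (475 FPKM), nrv1 for glia (170), Yp1 for fat body (10814), ninaE for photoreceptors (925), crq for hemocytes (66.6) and Mlc2 for muscle (22.4). On the glial list Gs2 followed at 56.7 FPKM, while repo, moody, Gli and wrapper did not reach 1 FPKM in at least 4 libraries. How specific nrv1 is for glia was not tested. Of the glial factor repo the median was 0.378 FPKM. The fat body gene Fbp2 was listed at 0 in all 8 libraries, and the muscle gene Act88F reached no more than 0.265 FPKM. Other genes of these lists reached 1 FPKM in all 8, among them nrv2 and Eaat1 for glia, Yp1 for fat body and Mlc2 for muscle. So did ninaE and the hemocyte genes Hml and srp. These markers were named after their values were seen. Libraries 1 and 8 had the fewest genes at 1 FPKM or more, 2518 and 3798. Library 3 came near library 8 with 4094, and the others had 4807 to 5256. Library 8 also had the lowest neuronal sum and the highest fat body sum. Read depth is unknown.

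Of the 21 members, 10 reached 1 FPKM in at least 4 libraries and are called detected here, beside 41.2% of all genes in the files. They comprised 6 of 12 inducible and 4 of 6 constitutive members. In all 8 libraries 5 members reached 1 FPKM, beside 11.0% of all genes: Hsp23, Hsp27, Hsc70-4, Hsp83 and Hsp110. A further 3 did so in 1 or 2 libraries and 8 in none. The 3 Hsp60 paralogs were listed at 0 in every library, beside 30.1% of all genes. Together the members held a median of 0.346% of a library's summed FPKM, with 0.0782% in library 8 as the lowest and 0.504% in library 7 as the highest share.

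**Figure D1:**
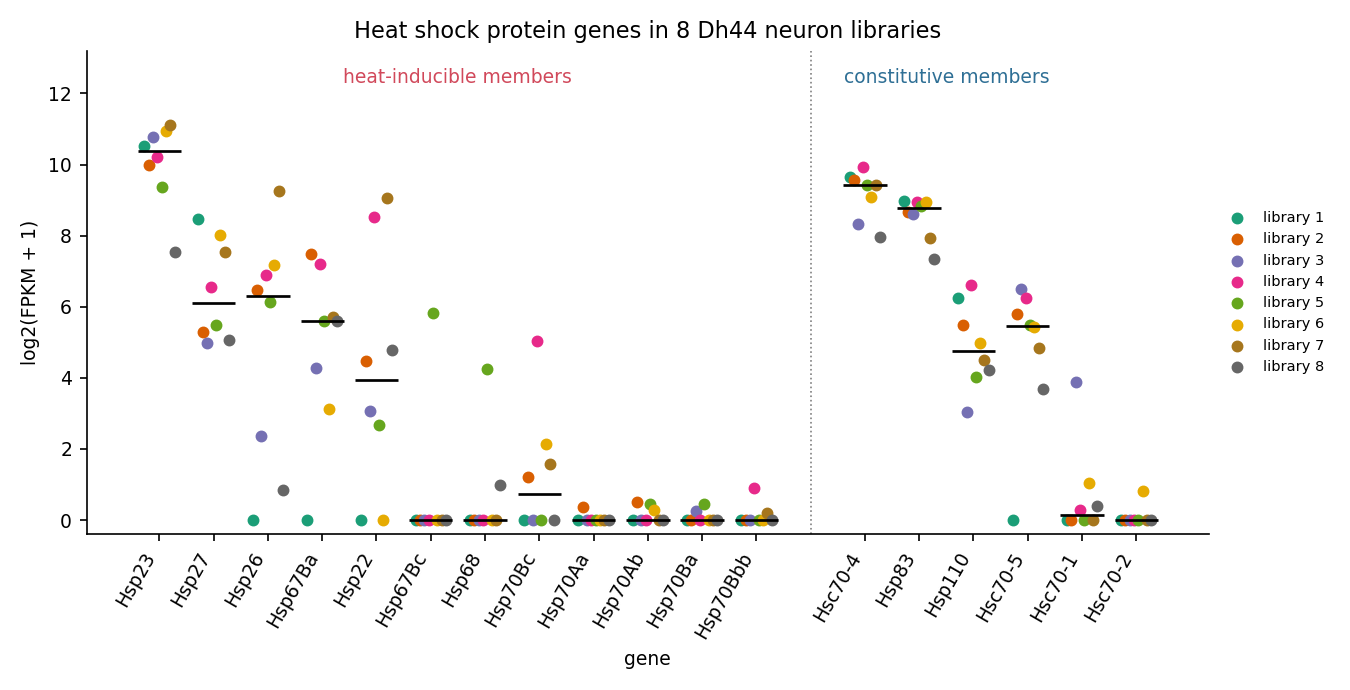
Level of each inducible and constitutive member as log2(FPKM + 1) in the 8 libraries (points, coloured by library) with the median over libraries (bars). The points of Hsp23, Hsc70-4 and Hsp83 lie high in every library, those of the Hsp70 copies lie at or near 0 apart from Hsp70Bc, and Hsp22 and Hsp26 spread over the widest ranges.

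The small heat shock proteins were the abundant inducible class, and Hsp23 led them. Hsp23, a cytosolic small heat shock protein, had a lowest value of 184 FPKM in library 8, a median of 1327 FPKM and a highest value of 2217 FPKM in library 7. It was the highest member of all in 6 libraries, and it exceeded the next inducible member by a factor of 3.19 to 56.9 in each of the 8. The median of Hsp23 ranked 102 among all genes. Library 8 lay well below the rest, the next lowest value being 656 FPKM in library 5. Hsp23 (FBgn0001224) occupies positions 9381882 to 9382765 of chromosome 3L, plus strand (assembly BDGP6.54; the build behind the values may be another), with 884 bp of exons that overlap no other annotated exon.

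Its neighbour Hsp27, a small heat shock protein of the nucleus, was lower but present throughout, with a lowest value of 30.6 FPKM in library 3, a median of 68.5 FPKM and a highest value of 354 FPKM in library 1. Libraries 1, 6 and 7 were high for Hsp27 (354, 260 and 186 FPKM), and the other 5 lay under 100 FPKM. Its exons overlap those of the antisense gene CR43483, whose reads cannot be separated without strand. Hsp26, another cytosolic small heat shock protein, was listed at 0 in library 1, had a median of 78.5 FPKM and reached 609 FPKM in library 7, against 143 FPKM in the next highest library, 6. Library 7 thus stood alone at the top for Hsp26, and libraries 1, 8 (0.814 FPKM) and 3 (4.17 FPKM) formed the bottom.

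Hsp22, the mitochondrial small heat shock protein, had the largest SD on the log2 scale of the detected members. Library 7 had 528 FPKM of it and library 4 had 370 FPKM, and the third highest value was 26.5 FPKM in library 8. Its median was 14.4 FPKM. It was listed at 0 in library 6 and at 5.46e-26 FPKM in library 1, a model estimate that is read here like a 0. Its exons overlap those of CG4456, the gene also known as Hsp67Bb, on the same strand, so reads could be split between them and the value is uncertain. Hsp67Ba, a further member of the same gene family, was listed at 0 in library 1 and had a median of 47.2 FPKM, with 178 FPKM in library 2 and 146 FPKM in library 4 as the highest values. The antisense gene asRNA:CR43481 overlaps its exons. Hsp67Bc, also of this family, was at 55.6 FPKM in library 5 and listed at 0 in the other 7.

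The 6 small heat shock protein genes are neighbours, within 14.2 kb of chromosome 3L from 9371511 to 9385694 (BDGP6.54). They did not share an order of libraries. Library 7 was the highest for Hsp22, Hsp23 and Hsp26, but library 1 was for Hsp27, library 2 for Hsp67Ba and library 5 for Hsp67Bc. Within library 1, Hsp23 (1474 FPKM) and Hsp27 (354 FPKM) were high, whereas Hsp26, Hsp67Ba and Hsp67Bc were listed at 0. Hsp23 and Hsp27 lie next to each other at one end of the cluster. Library 3 likewise had 1739 FPKM of Hsp23 and 4.17 FPKM of Hsp26. The number of small heat shock protein genes at 1 FPKM or more was 2 in library 1, 6 in library 5 and 4 or 5 in the others.

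**Figure D2:**
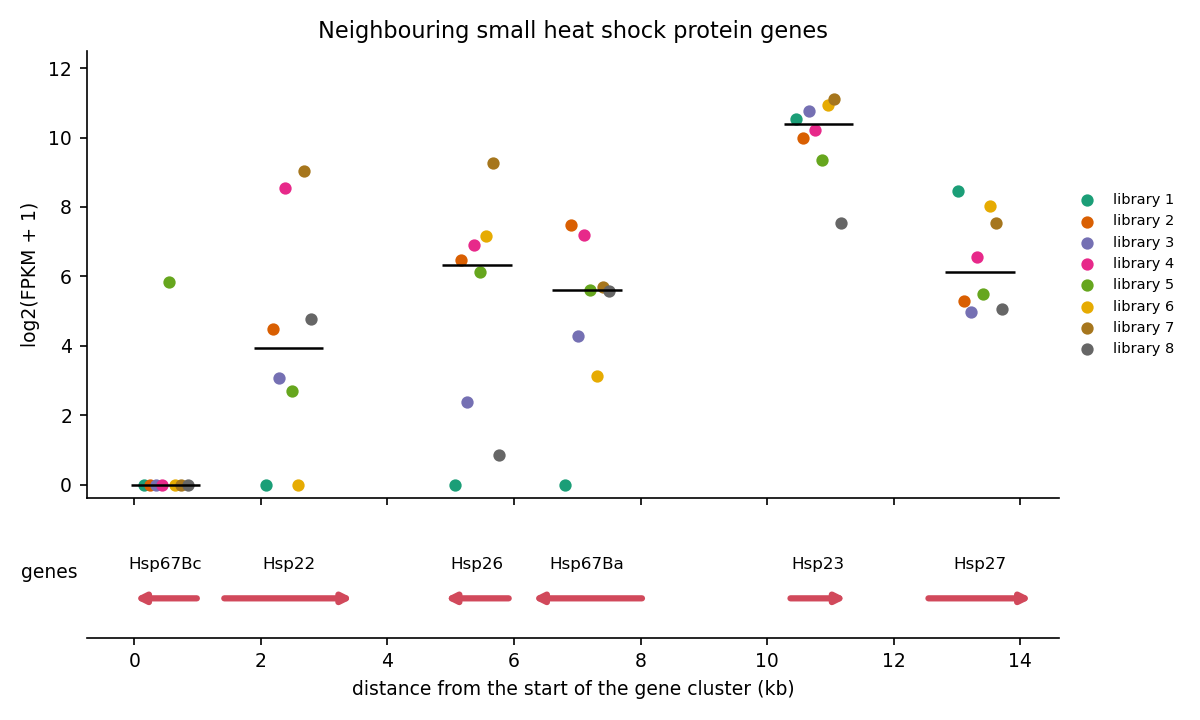
Level of the 6 small heat shock protein genes as log2(FPKM + 1) (points by library, bars for medians) against their place in the gene cluster in kb from its start, with arrows for the extent and strand of each gene. Hsp23 is the highest of the 6 in every library, and the library at the top is 7 for Hsp22, Hsp26 and Hsp23 and another one for each of the remaining 3 genes.

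The Hsp70 genes that mark the classic heat shock response were listed near 0. Of the 5 copies measured, Hsp70Aa, Hsp70Ab, Hsp70Ba and Hsp70Bbb stayed below 1 FPKM in every library, with highest values of 0.298, 0.420, 0.355 and 0.884 FPKM. Hsp70Bc had a median of 0.663 FPKM and was listed at 0 in 4 libraries. Its highest value was 31.7 FPKM in library 4, followed by 3.37 FPKM in library 6. The copies are nearly identical in sequence, so a read can belong to several of them and the value of any single copy is uncertain. How such reads were counted is unknown, so the copies together may also be listed too low. Antisense exons of CG3281 also overlap those of Hsp70Ab.

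Summed over the 5 copies, the inducible Hsp70 level had a median of 1.38 FPKM, was 0 in libraries 1 and 8, and reached 32.6 FPKM in library 4. Set against Hsc70-4, the cognate Hsp70 of the cytosol, this was 3.32% of its level in library 4 and at most 0.662% in the other 7 libraries. The sum leaves out Hsp70Bb, which had no value, and shared reads may be missing from it, so these percentages may be too low. Hsp68, a further heat-induced Hsp70, had 17.9 FPKM in library 5 and 0.972 FPKM in library 8, and was listed at 0 in the other 6. The exons of CG6000 and lncRNA:CR44097 overlap Hsp68 on the opposite strand. The libraries in which the inducible Hsp70 genes were above 10 FPKM thus differed: library 4 for Hsp70Bc and library 5 for Hsp68.

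The constitutive members were led by Hsc70-4 and Hsp83, which together made up 86.5% to 95.1% of the class sum in every library. Hsc70-4 (FBgn0266599, chromosome 3R from 15242687 to 15246614, plus strand) had a lowest value of 249 FPKM in library 8, a median of 687 FPKM and a highest value of 982 FPKM in library 4. Hsp83 (FBgn0001233, chromosome 3L from 3192969 to 3197059, plus strand) had 161 FPKM in library 8 as its lowest, 434 FPKM as its median and 503 FPKM in library 1 as its highest value. The highest value was 3.94 times the lowest for Hsc70-4 and 3.12 times for Hsp83, against 12.0 times for Hsp23. Hsc70-4 exceeded Hsp83 in 7 of 8 libraries, by a ratio of 0.815 to 2.83, with library 3 as the exception. The antisense gene CG14966 overlaps exons of Hsp83.

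Hsp110, which acts on Hsp70 as a nucleotide exchange factor, had a median of 26.0 FPKM, a lowest value of 7.28 FPKM in library 3 and a highest of 97.4 FPKM in library 4. Per library it stood at 2.23% to 9.92% of the level of Hsc70-4. Hsc70-5, the Hsp70 of the mitochondrial matrix, had a median of 43.1 FPKM and a highest value of 89.9 FPKM in library 3, and was listed at 0 in library 1. Library 3 was thus the highest for the mitochondrial member and the lowest for Hsp110. The remaining cognates were scarce: Hsc70-1 had a median of 0.114 FPKM with 13.8 FPKM in library 3, and Hsc70-2 was listed at 0 in 7 libraries and at 0.745 FPKM in library 6.

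Among members with a value, the inducible ones summed to more than the constitutive ones in 6 of 8 libraries. This rested on Hsp23. The constitutive sum lacks Hsp60A and all 8 CCT genes, and the inducible sum lacks Hsp70Bb, so the order over the whole classes is unknown. The inducible sum had a median of 1814 FPKM (292 in library 8 to 3593 in library 7), and the constitutive sum a median of 1158 FPKM (440 in library 8 to 1648 in library 4). Their ratio had a median of 1.25 and was highest in library 7 at 3.66, followed by 2.19 in library 3 and 2.13 in library 6. It was below 1 in libraries 5 (0.745) and 8 (0.663). Hsp23 supplied 60.8% to 96.6% of the inducible sum. Without it the ratio had a median of 0.258 and exceeded 1 in library 7 alone, at 1.40. Hsp23 has 884 bp of exons, Hsc70-4 has 2716 bp and Hsp83 has 2960 bp. An effect of length on the ratio, beyond the scaling of FPKM, was not tested. When Hsp83 was left out or counted as inducible, the inducible sum was the higher in all 8 libraries.

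**Figure D3:**
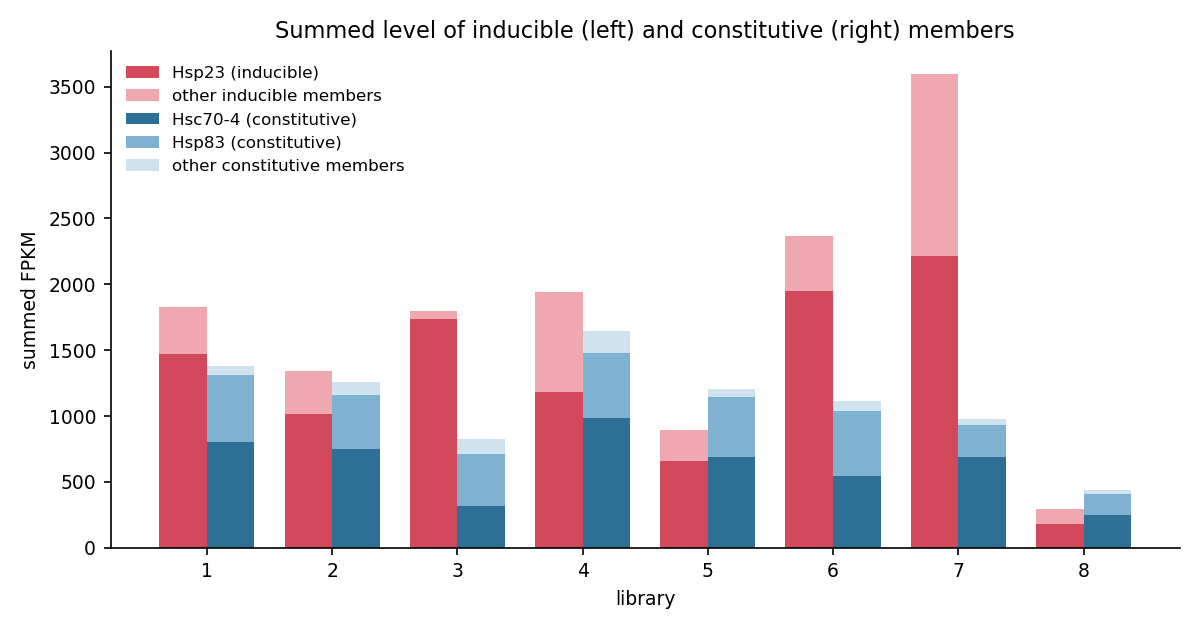
Summed FPKM of the inducible members (left bar of each library, with the part of Hsp23) and of the constitutive members (right bar, with the parts of Hsc70-4 and Hsp83) in the 8 libraries. The inducible bar is the higher in 6 libraries, and the part of Hsp23 is the larger part of it in each of them. Members without a value, most of them constitutive, are in neither bar.

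The spread between libraries was larger for the detected inducible members than for the detected constitutive ones. Over the 6 detected inducible members the SD of log2(FPKM + 1) had a median of 2.09, from 1.16 (Hsp23) to 3.41 (Hsp22). Over the 4 detected constitutive members its median was 0.938, from 0.593 (Hsp83) to 2.11 (Hsc70-5). Because this SD varies with level, each was set beside the median SD of the genes nearest in mean level. Of the inducible members 5 of 6 lay above that value, and of the constitutive members 0 of 4, beside 2154 of all 4846 detected genes. Over all 12 measured inducible members, of which the added 6 were not detected, 7 lay above it, and over all 6 measured constitutive members 1 did. The median SD was then 1.46 for the inducible members, near the 1.43 of genes of like level, and 0.938 for the constitutive ones. Without library 5 these medians over all measured members were 0.795 and 0.982, the reverse order, while those over the detected members were 2.20 and 0.982. Hsp23 had an SD of 1.16 where genes of its level had 0.595, Hsp26 had 3.36 against 2.21, and Hsp22 had 3.41 against 2.31. For Hsp23 the value in library 8, 184 FPKM, lay well below the next lowest, 656 FPKM. The SD of Hsp23 without library 8 was not computed, so its excess may rest on that library. Hsp70Bc was the inducible exception, at 1.75 against 1.88. Among constitutive members Hsp110 lay furthest below, at 1.19 against 2.21, whereas Hsc70-4 (0.684 against 0.736) and Hsc70-5 (2.11 against 2.15) were close to the genes of their level.

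**Figure D4:**
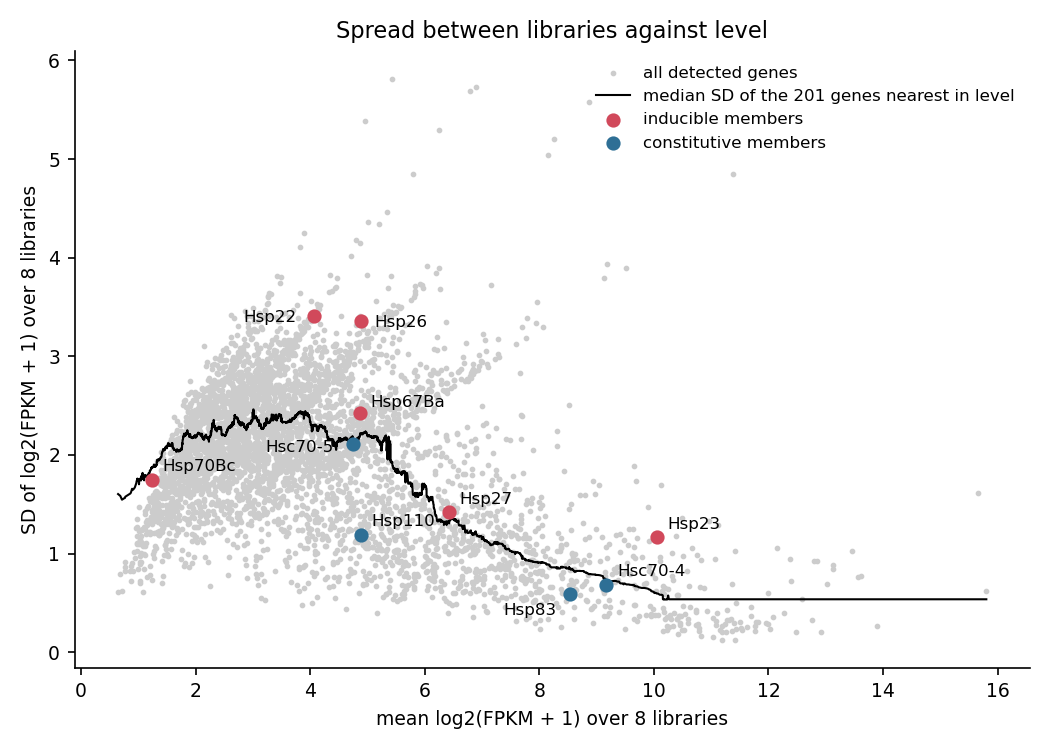
SD of log2(FPKM + 1) over the 8 libraries against mean log2(FPKM + 1), for all 4846 detected genes (grey), the detected inducible members (red) and the detected constitutive members (blue). The line is the median SD of the genes nearest in level, and Hsp22, Hsp26 and Hsp23 lie well above it, while Hsp110 lies below it. The SD of Hsp23 includes library 8, where its value lay well below the rest.

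The deviations of the classes differed between libraries 1 and 8. In library 8 the constitutive members lay below their medians in the other 7 libraries, 4 of 4 of them, with a median deviation of -1.48 on the log2(FPKM + 1) scale, and so did 5 of 6 inducible members, with -1.36. All detected genes had a median deviation of -1.17 there, and the 11 neuronal markers -2.17, with all 11 lower. The summed neuronal markers were at 519 FPKM in library 8, against 1059 to 2141 in the others. In library 1 the 6 inducible members had a median deviation of -2.85, with 4 lower, and all detected genes -2.11, but the 4 constitutive members 0.27, with 1 lower. The inducible members not lower there were the abundant Hsp23 (1474 FPKM) and Hsp27 (354 FPKM). The lower ones were listed at 0 or read as 0, as was the constitutive Hsc70-5. Only 2518 genes reached 1 FPKM in library 1, and class was not separated from level. The neuronal markers had a median deviation of -0.77 in library 1, with 8 of 11 lower and a sum of 1059 FPKM, and the 7 fat body markers 1.24, with 0 lower and a sum of 56982 FPKM. In library 8 the fat body markers had 1.62, with 1 lower and a sum of 68479 FPKM. Fewer neurons in a library and less RNA per cell cannot be told apart in these values, and the part of other cells in them was not tested. Without libraries 1 and 8 the ratio of inducible to constitutive sums had a median of 1.65, with the inducible sum higher in 5 of 6 libraries.

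Of 22 measured co-chaperones and regulators of Hsp70 and Hsp90, 18 were detected, beside 41.2% of all genes, and 8 of them reached 1 FPKM in all 8 libraries, beside 11.0%. The J-domain proteins, which bring clients to Hsp70 and stimulate its ATPase, led the list: jdp had a median of 372 FPKM (58.1 to 527) and Droj2 255 FPKM (155 to 296). The highest value of Droj2 was 1.92 times its lowest. The Hsp90 co-chaperone p23 followed at 142 FPKM (25.4 to 233), the tetratricopeptide co-chaperones Sgt at 117 FPKM (4.25 to 183) and Tpr2 at 67.9 FPKM (4.18 to 139), and Csp, the cysteine string protein of synaptic vesicles, at 95.5 FPKM (1.41 to 241).

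Hsf, the transcription factor of the heat shock response, had a median of 31.3 FPKM, was listed at 0 in library 1 and was highest in library 8 at 57.0 FPKM. Library 4, with the highest Hsp70Bc, had 33.6 FPKM of Hsf, and library 7, with the highest Hsp22 and Hsp26, had 41.5 FPKM. DnaJ-1, the heat-inducible fly Hsp40, had a median of 29.4 FPKM and was highest in library 4 at 232 FPKM, against 105 FPKM in the next library, 2. The BAG-domain co-chaperone stv had a median of 55.1 FPKM and was also highest in library 4, at 120 FPKM. So was lncRNA:Hsromega, the noncoding RNA of a heat shock locus, at 4104 FPKM around a median of 1648 FPKM.

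Library 4 was the highest for 9 of the 28 detected members and co-chaperones (32.1%), beside 16.8% of all 4846 detected genes. The 9 are Hsp70Bc, Hsc70-4, Hsp110, DnaJ-1, stv, jdp, Csp, Cdc37 and mrj, of which the last 2 were named after their values were seen. Library 4 also had the most genes at 1 FPKM or more, 5256, and the highest value of Hr38, a nuclear receptor gene induced by neuronal activity, at 164 FPKM around a median of 47.6 FPKM. In library 4 the summed neuronal markers, 2141 FPKM, were the highest of all libraries. The fat body and photoreceptor sums there, 14333 and 795 FPKM, were the lowest, and the glial, hemocyte and muscle sums were at neither end. The part of these differences in the result was not tested. Antisense exons of CG2617 overlap those of Hr38.

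**Figure D5:**
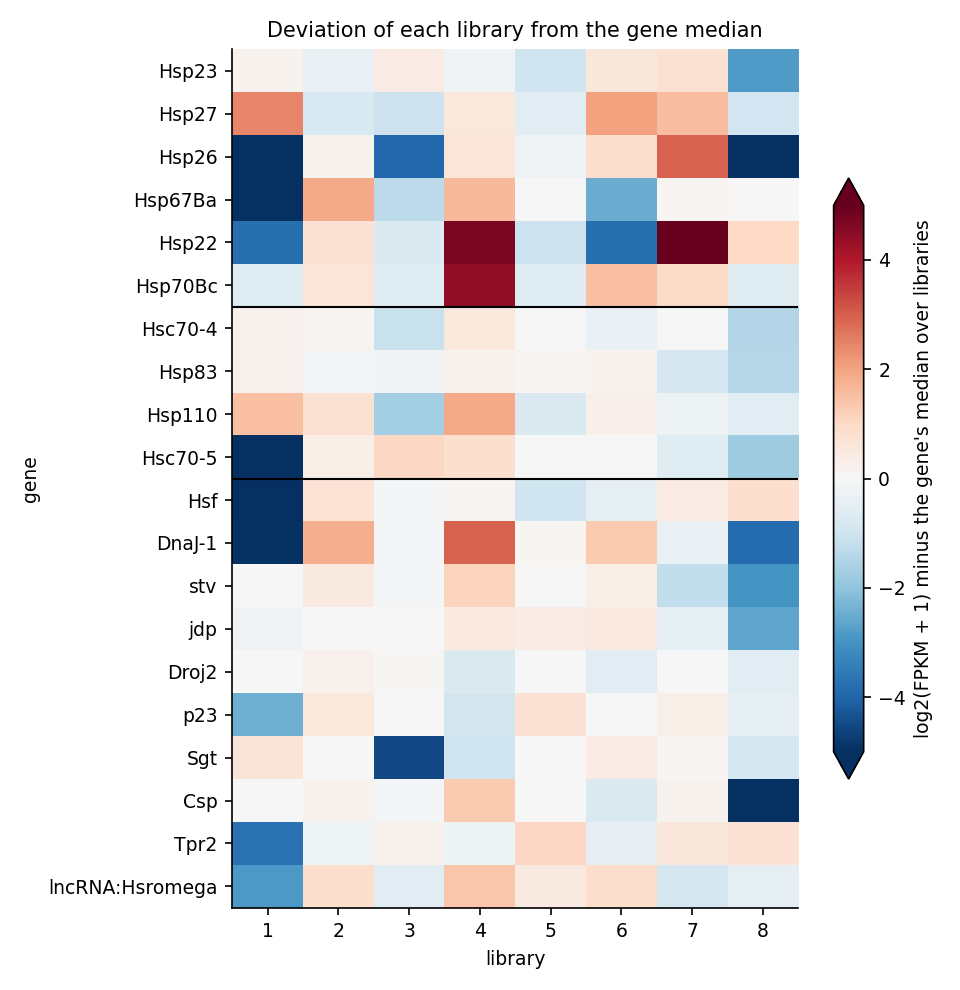
Difference of log2(FPKM + 1) from the gene's median over the 8 libraries (colour, red above and blue below the median) for the 6 detected inducible members (top block), the 4 detected constitutive members (middle block) and 10 partners and heat shock pathway genes (bottom block). The middle block is paler than the top block apart from Hsc70-5 in library 1, and library 4 is red for Hsp22, Hsp70Bc and DnaJ-1.

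Chaperones of other compartments and known clients were detected as well. The counts in this paragraph stand beside the 41.2% of all genes that were detected. Hsc70-3, the Hsp70 of the endoplasmic reticulum, had a median of 442 FPKM (162 to 668), and 6 of 7 chaperones measured outside the cytosol were detected, a list that includes it. Among these were Cnx99A, the fly calnexin (204 FPKM), the endoplasmic Hsp90 Gp93 (174 FPKM), the disulfide isomerase ERp60 (151 FPKM), and the mitochondrial Hsp90 Trap1 (13.6 FPKM) and Roe1 (10.7 FPKM). Of 14 listed helpers of prefoldin and chaperonin folding, 2 had a value. Both were detected, viaf at 127 FPKM and uri at 1.21 FPKM. Of the cytoskeletal proteins that fold in the cytosolic chaperonin, all 6 genes measured were detected, led by betaTub56D (1512 FPKM), alphaTub84B (1339 FPKM) and Act5C (676 FPKM), with alphaTub84D at 37.7, Act42A at 21.1 and Act57B at 4.65 FPKM. Act57B is also on the list of muscle markers. Antisense exons overlap Gp93, ERp60, viaf and uri.

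On a list of 14 measured stress and immediate early genes, which includes lncRNA:Hsromega and Hr38, all were detected, beside 41.2% of all genes. They were led by GstD1, a glutathione transferase of the oxidative stress response, with a median of 2710 FPKM, and by lncRNA:Hsromega. The unfolded protein response factor Xbp1 had a median of 439 FPKM, crc 371 FPKM, the autophagy receptor gene ref(2)P 103 FPKM and Thor 80.7 FPKM. Exons of CG46314 overlap crc on the same strand and those of CG10337 overlap ref(2)P on the opposite one. The lowest median of the list was that of Gadd45, at 12.4 FPKM, a gene named after its values were seen.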

How the data were processed

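RNA sequencing of 8 libraries of Dh44 neurons gave 1 deposited FPKM value per gene and library, which the authors normalised for exon length and mapped fragments, per the series text. Amplified DNA was sheared to about 250 bp, and low-quality reads, adaptors and primers were removed before mapping. Per the submitters' processing notes TopHat was used; for its version, the build, the annotation, the FPKM program and the use of strand, the sources used here name nothing. FPKM depends on what else a library holds. Depth is unknown: 105 values above 0 lay below 1e-10, so whole reads were not recovered and no interval is given.

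Identifiers were matched to symbols through the supplied name table (11646 of 11773), and overlaps, exon lengths and coordinates came from BDGP6.54 (Ensembl release 115). Logarithms are log2(FPKM + 1). Detection means 1 FPKM or more in at least 4 libraries. Pairs of libraries correlated at 0.513 to 0.733 (Pearson, 8235 genes), so none was a duplicate. The members, classes and lists were chosen with earlier results of these data known; the lists cover Hsp70 and Hsp90 co-chaperones, chaperonin helpers, chaperones of other compartments, stress genes, cytoskeletal clients and markers of 6 cell types. Named genes are all members, up to 6 detected genes of each non-marker list by median, and Hsf, DnaJ-1, stv, Hsc70-3, Hr38 and lncRNA:Hsromega; others are said to be named after their values were seen. The planned comparison of CCT subunits and the search for promoter motifs were not made. Python 3.11.15, pandas 2.3.3 and numpy 2.4.6 were used.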

Additional observations from a re-analysis of the deposited data

Results flagged for a closer look

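For 47 items (the members that reached 1 FPKM in any library, 4 sums and shares over the members, and the genes named by rule) both ends of the 8 libraries were set against the rest, and 9 stood apart by a gap above Dixon's 95% critical value relative to the range of the 8 libraries. About 1 in 20 such groups stand out by chance if values are normal, which FPKM, skewed towards high values, is not. In each of the 9 it was the highest library that stood apart. Among the members these were Hsp26 at 609 FPKM in library 7, Hsp67Bc at 55.6 FPKM and Hsp68 at 17.9 FPKM in library 5, Hsp70Bc at 31.7 FPKM in library 4, and Hsc70-1 at 13.8 FPKM in library 3. Of these 5, only Hsp26 and Hsp70Bc were detected in at least 4 libraries. The other genes were DnaJ-1 at 232 FPKM and Csp at 241 FPKM in library 4, Roe1 at 124 FPKM in library 2, and Act57B at 49.1 FPKM in library 3. Among these 47 items none stood apart in libraries 1, 6 or 8. Members below 1 FPKM throughout and genes named after their values were seen were not compared. Nor were markers, apart from Act57B, which is also on the list of cytoskeletal clients.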

How the results depend on the processing

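The median share of the members in summed FPKM, 0.346%, moved by less than 1 SD between libraries in all 12 alternatives run. The change to TPM was among them and cannot alter a share within a library. Without ribosomal protein genes and Dh44 the share was 0.466%, and without genes with exons under 250 bp it was 0.374%. Leaving out 1 library gave 0.306% to 0.386%. The number of detected members, 10 as reported, became 5 when all 8 libraries were required and lay between 9 and 11 in the other 15 alternatives, 9 to 10 of them when 1 library was left out. The median ratio of inducible to constitutive sums, 1.25, turned to 0.629 without the highest member of each class and to 0.258 without Hsp23, a setting chosen after seeing the data. It was 2.38 with Hsp83 among the inducible members, and 1.18 to 1.32 when 1 library was left out. No alternative could add Hsp60A and the CCT genes, which had no value. The median SD over all measured inducible members (1.46 with a pseudocount of 1) was 2.10 with a pseudocount of 0.1, 0.831 with 10, and 2.42 over members with a median of 1 FPKM or more. Leaving out 1 library gave 0.795 to 1.52, with 0.795 without library 5, where Hsp67Bc and Hsp68 peak, below the 0.982 of the constitutive members there. Over detected members only, a setting chosen after seeing the data, the inducible median was 1.67 to 2.24 and the constitutive 0.824 to 1.01 when 1 library was left out. The constitutive median SD (0.938) was 1.16 and 0.623 under the same pseudocounts, 0.575 without libraries 1 and 8, and 0.639 to 1.01 when 1 library was left out. The cause of these shifts was not tested. No paired analysis was possible because there is only 1 group. Unknown depth limits every low value, and a value listed at 0 is not read as absence.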

Other observations

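l(2)efl, a further gene of the small heat shock protein family that the symbol rule does not reach, was named after its values were seen. It had 29.6 FPKM in library 5 and 1.23 FPKM in library 8 and was listed at 0 in the other 6 libraries. Hsp68 was listed above 0 in the same 2 libraries, at 17.9 and 0.972 FPKM, and Hsp67Bc only in library 5, at 55.6 FPKM. Library 5 was otherwise low for the abundant small heat shock protein, with Hsp23 at 656 FPKM.

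Co-chaperones of Hsp90, named after their values were seen, were highest in different libraries. CG1416, also known as Aha1, had 344 FPKM in library 1 but 0.666 FPKM in library 3, Stip1 was listed at 0 in library 1 and reached 81.8 FPKM in library 8, and Cdc37 was listed at 0 in libraries 1 and 8 and reached 134 FPKM in library 4. Their SDs of log2(FPKM + 1), 2.45, 2.39 and 2.59, stood beside 2.20, 2.27 and 2.37 for genes of like level.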
